A study of Mus musculus with 9 samples.

Results

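Regulators of signalling from tumour necrosis factor (TNF) receptors, some of which act through ubiquitin, were followed in mouse regulatory T cells (Tregs). They were Tnfaip3 (which encodes A20), Tnip1, Cyld, Traf1, Traf2, Traf3, Birc2, Birc3, Cflar and Ripk1. The 10 genes were chosen by name for their place in this pathway, with no cut on measured values, from the 23420 genes of the expression table. Earlier results of these data were known when they were chosen, so the choice was not independent of the data. All 10 passed the filter on low values. RNA was sequenced from 9 libraries of Tregs, a suppressive class of CD4 T cells defined by the transcription factor Foxp3, in a study of mice in which immunization with collagen had set off arthritis (collagen-induced arthritis). The synovial group held 3 libraries of Tregs from digested paws of arthritic mice, the arthritic node group 3 libraries from lymph nodes draining the joints of such mice, and the control node group 3 libraries from draining nodes of control mice labelled as untreated. All 9 libraries were labelled WT and came from cells sorted on a YFP reporter of Foxp3, so each group holds the cells that express the reporter. The sources used here give no strain, age or sex. No synovial library came from control mice, so joint and arthritis cannot be told apart in any contrast of synovium with control nodes.

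TNF receptor superfamily members such as TNFR2, OX40 and 4-1BB, which costimulate Tregs, have no enzyme activity and signal by recruiting TRAF adaptors. TRAF2 carries the ubiquitin ligases cIAP1 and cIAP2 (Birc2 and Birc3) to the receptor, where ubiquitin chains on RIPK1 and other proteins assemble the kinases that activate NF-kB. A20 and CYLD remove or edit such chains and so limit the signal, and TRAF3 together with TRAF2 and the cIAPs holds the kinase NIK at a low level and so restrains the non-canonical NF-kB pathway.

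Several of these genes are textbook NF-kB targets, so the 250 bases upstream of each RefSeq transcription start (GRCm38.p6) were searched on both strands for the kB consensus, the DNA motif bound by NF-kB. A match was present for 4 of the 10 genes (13 start sites), against 4.46% of all 27025 genes with such a window and 3.9% of 32851 windows. Overlapping matches were counted as 1 stretch. The 5 stretches are shown 5′ to 3′ on the strand of the gene, since they are the matches behind that count, with the matching bases in capitals.
Tnfaip3, first match: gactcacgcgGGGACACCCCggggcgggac
Tnfaip3, second match: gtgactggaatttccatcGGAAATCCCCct
Tnip1: ctccatcatgGGGGAATTCCCCtcctgcct
Traf3: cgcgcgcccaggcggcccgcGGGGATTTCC
Cyld: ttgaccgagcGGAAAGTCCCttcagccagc
The stretches lie at chr10:19015516-19015545 and chr10:19015411-19015440 (Tnfaip3, minus strand), chr11:54962979-54963008 (Tnip1, minus strand), chr12:111166340-111166369 (Traf3, plus strand) and chr8:88696863-88696892 (Cyld, plus strand). The capitals span positions -125 to -116 and -12 to -3 from the start of Tnfaip3, -58 to -47 for Tnip1, -10 to -1 for Traf3 and -155 to -146 for Cyld. In Tnip1 the motif occurs at overlapping positions on both strands. The searched windows of Traf1, Traf2, Birc2, Birc3, Cflar and Ripk1 held no match, which says only that these letters are not in those windows. A match is a description of the sequence.

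Values are normalized read counts, gene read counts that the authors divided by a size factor per library. Differences are of mean log2(normalized count + 1), given ± standard error (SE) from limma, and p-values are two-sided and Benjamini-Hochberg adjusted over the 11357 genes tested. A gene was called at an adjusted p under 0.05. The tissue comparison set synovium against arthritic nodes, the disease comparison arthritic against control nodes, and the combined comparison synovium against control nodes. The 3 comparisons share libraries and are not independent of each other. In bulk samples, fewer cells of a type and less RNA per cell cannot be told apart.

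Read counts recovered from the values came to 11844390 to 12855435 in 8 libraries and 11300406 in control node library 1. Markers of T cells and Tregs were present in all libraries, with summed counts of 133844 to 138265 in synovial libraries, 69424 to 79137 in arthritic nodes and 77301 to 77796 in control nodes. Of these 9 genes 4 rose in the tissue comparison, Il2ra, Ctla4, Ikzf2 and Ikzf4, and 0 fell. Foxp3 (465 ± 65.3 against 269 ± 41.0, adjusted p = 0.0597), Cd4, Cd3e, Cd3d and Cd3g did not pass. Under quantile normalization 4 rose and 3 fell. Control node library 1 stood apart on the second principal component (83.5, against -41.4 to 18.8 for the other 8 libraries). Some defining markers of other cells were at 0 in all 3 synovial libraries, among them Adgre1 and Fcgr1 (macrophage), Csf3r (neutrophil), Itgax and Clec9a (dendritic) and Cd8a (CD8 T cell). Csf3r and Clec9a were at 0 in all 9 libraries. Other members of these lists were present in synovial libraries, with Cd8b1 at 125, 113 and 219 (93.9 to 234 in the nodes). S100a8 stood at 4.41, 34.1 and 1.12 there and at 0 in the nodes. The CD8 T and NK cell list summed to 113 to 234 in synovium, 150 to 309 in arthritic nodes and 104 to 166 in control nodes. The B cell list summed to 202 to 364, 410 to 637 and 442 to 497 in the same order. Of its 2 genes tested, Cd79b fell in the tissue comparison (adjusted p = 0.0180) and Cd79a did not pass. Endothelial markers summed to 1469 to 1741, 2311 to 2967 and 2806 to 3370. Pecam1 alone was tested and fell (adjusted p = 0.000687). Mast cell markers summed to 0 to 14.6, 16.4 to 35.8 and 22.1 to 59.3, where Cpa3 did not pass (adjusted p = 0.0502). The macrophage list as a whole (8 genes) summed to 79.8 to 314 in synovium, 33.7 to 418 in arthritic and 105 to 349 in control nodes, with 3 genes tested. Its member Cd14 rose, at 70.5, 196 and 66.3 in synovial libraries, 0, 0 and 14.9 in arthritic nodes and 0 in each control library (adjusted p = 0.00516 in the tissue comparison). Against control nodes Cd14 rose and Lyz2 fell. Summed markers were higher in synovium for the dendritic list (7 genes, summed 918 to 1078 in synovium, 27.8 to 82.1 in arthritic and 38.1 to 62.1 in control nodes). Of these, Xcr1 and Zbtb46 were tested and both rose in the tissue comparison. The neutrophil list was higher too (6 genes found, summed 417 to 583, 43.5 to 238 and 1.00 to 65.7). Of these, Mmp9 alone was tested. Mmp9 did not pass in the tissue comparison, but against control nodes it rose by 5.38 and passed. Fibroblast markers summed to 348 to 2485 in synovium and to 966 to 1427 in the nodes. Most of the node sums was Prg4, at 953 to 1412 in the 6 node libraries and 314 to 761 in synovium, which fell by 1.10 in the tissue comparison (adjusted p = 0.00725). Col1a1 stood at 402 in synovial library 3, at 38.6 and 1.17 in libraries 1 and 2, and at 0 to 75.1 in the nodes. In the tissue comparison 0 of the 6 fibroblast genes tested rose, while against control nodes Dcn rose and Prg4 fell. Immediate-early and heat shock genes known to respond to tissue digestion also differed. In the tissue comparison 16 of 18 rose, where 17.9% of all genes tested rose and 15.9% fell. Their summed counts were 192906 to 216663 in synovial libraries, 41042 to 60733 in arthritic nodes and 38646 to 46549 in control nodes. All synovial libraries came from digested paws, so any effect of that digestion cannot be told apart from tissue. The part of these genes in the results below was not tested.

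Synovial Tregs had higher RNA levels of Tnfaip3, Tnip1, Traf1, Traf3 and both cIAP genes than node Tregs of arthritic mice. Cyld, Cflar and Ripk1 gave small differences with intervals that include 0. In the tissue comparison 6 of the 10 genes rose and 0 fell, where 17.9% of all genes tested rose and 15.9% fell (33.8% in all). The median difference of the 10 genes was 1.39, against -7.25e-05 over all genes tested. Synovial and arthritic node libraries did not overlap in 7 of the 10, the 6 that rose and Traf2, where 48.2% of all genes did not overlap. In the disease comparison 0 of the 10 passed.

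**Figure D1:**
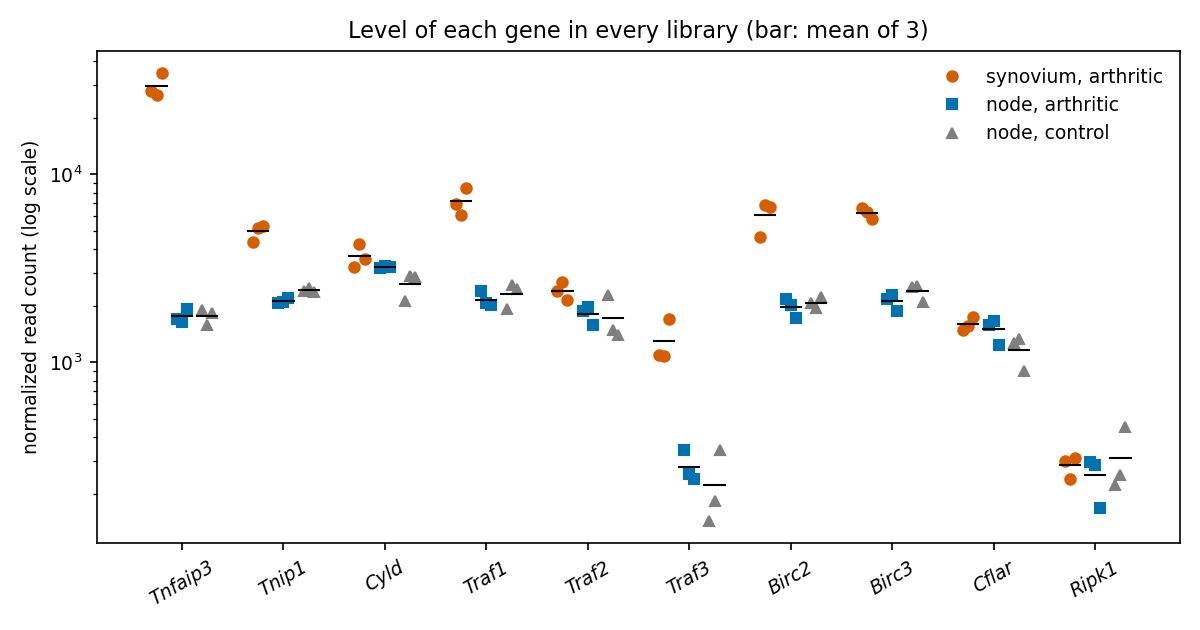
Normalized read count (log scale) of each of the 10 genes in all 9 libraries, by group, with a bar at the mean of 3 libraries. Tnfaip3 lies at 26322 or more in each synovial library and at 1926 or less in each node library, while the symbols of Ripk1 from the 3 groups intermingle.

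Tnfaip3 encodes A20, an enzyme that both removes and adds ubiquitin and shuts off NF-kB signalling (chromosome 10, 19000910 to 19015657, minus strand, GRCm38). Its normalized counts were 27828, 26322 and 34566 in synovial libraries 1 to 3, 1704, 1647 and 1926 in arthritic nodes, and 1906, 1575 and 1822 in control nodes. Every synovial library lay far above every node library, and the node groups overlapped. The mean of 29572 ± 4390.0 (SD, n = 3) in synovium was 16.8 times that of 1759 ± 148 in arthritic nodes. Tnfaip3 rose by 4.06 ± 0.12 in that comparison (adjusted p = 3.2e-09). A larger rise was seen in 2.03% of the genes tested. Between arthritic and control nodes the difference was -0.01, with a 95% interval of -0.28 to 0.27 (adjusted p = 0.996), so a change of more than 0.28 on the log2 scale lies outside it. Without synovial library 3, where Tnfaip3 and fibroblast markers were highest, the rise in the tissue comparison was 3.95.

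Tnip1 encodes ABIN-1, a ubiquitin-binding adaptor that helps A20 to act on its targets (chromosome 11, 54910785 to 54962917, minus strand). It stood at 4367, 5213 and 5337 in synovial libraries, 2074, 2084 and 2190.0 in arthritic nodes and 2404, 2475 and 2362 in control nodes. The 3 groups did not overlap, with synovium highest and arthritic nodes lowest. The tissue rise was 1.23 ± 0.11 (2.35-fold, adjusted p = 3.26e-06), smaller than that of Tnfaip3. Arthritic nodes differed from control nodes by -0.19 (95% interval -0.42 to 0.04), which did not pass (adjusted p = 0.657).

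Cyld encodes a deubiquitinase that, like A20, restrains NF-kB signalling (chromosome 8, 88697028 to 88751945, plus strand). It stood at 3212, 4281 and 3548 in synovial libraries, 3189.8, 3261 and 3206 in arthritic nodes and 2107, 2873 and 2853 in control nodes. Synovium and arthritic nodes overlapped, and each control library lay below every library of arthritic mice. The tissue difference was 0.18 (95% interval -0.12 to 0.49, adjusted p = 0.351, with a value of -0.10 under quantile normalization) and the disease difference 0.32 (0.01 to 0.62, unadjusted p = 0.0443, adjusted p = 0.540). Without control library 1, the lowest of the 9 for Cyld and the one that stood apart, the disease difference was 0.17 (adjusted p = 0.882).

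The 2 deubiquitinase genes were also set against each other within libraries. The ratio of Tnfaip3 to Cyld counts was 8.66, 6.15 and 9.74 in synovial libraries, 0.534, 0.505 and 0.601 in arthritic nodes, and 0.905, 0.548 and 0.639 in control nodes. Per kb of exon, which allows for the greater length of Cyld, Tnfaip3 was above Cyld in 3 of 3 synovial and 3 of 6 node libraries. On the log2 scale the ratio was 3.88 higher in synovium than in arthritic nodes (exact permutation test, two-sided p = 0.1, BH-adjusted 0.225 over 9 ratio tests), and 3 libraries against 3 cannot give a p below 0.1. Arthritic and control nodes overlapped (-0.32, exact p = 0.2).

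Traf1 encodes an adaptor with no ubiquitin ligase domain that pairs with TRAF2 (chromosome 2, 34941750 to 34961772, minus strand). It stood at 6981, 6082 and 8454 in synovial libraries, 2389.7, 2073 and 2012 in arthritic nodes and 1920.0, 2576 and 2468 in control nodes. All synovial libraries lay above all node libraries, and the node groups overlapped. Traf1 rose by 1.72 ± 0.15 (3.32-fold, adjusted p = 3.05e-06), and by 1.60 without synovial library 3. Arthritic and control nodes differed by -0.10 (95% interval -0.42 to 0.22, adjusted p = 0.907).

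Traf2 encodes the adaptor that brings the cIAPs to the receptor (chromosome 2, 25517982 to 25546940, minus strand). It stood at 2391, 2670.1 and 2138 in synovial libraries, 1864, 1966 and 1572 in arthritic nodes and 2275, 1487 and 1393 in control nodes. Synovial libraries lay above arthritic node libraries, while control library 1 reached into the synovial range. The tissue difference of 0.41 ± 0.18 (1.33-fold, 95% interval 0.03 to 0.80) did not pass (adjusted p = 0.0922). With the mouse number as a block in a fit of the 2 groups alone it passed (adjusted p = 0.0255), and without the block in the same 6 libraries too (adjusted p = 0.0414). Control library 1 bears on this call through the shared spread, since without it the adjusted p was 0.0314. The authors' deposited table lists a log2 fold change of 0.39 for Traf2 with an adjusted p of 0.0425.

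The ratio of Traf1 to Traf2 counts was 2.92, 2.28 and 3.95 in synovial libraries, 1.28, 1.05 and 1.28 in arthritic nodes and 0.844, 1.73 and 1.77 in control nodes. Synovium did not overlap with either node group. The log2 ratio was 1.31 higher in synovium than in arthritic nodes (exact permutation test p = 0.1, BH-adjusted 0.225), the smallest p this design can give.

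Traf3 encodes an adaptor that, together with TRAF2 and the cIAPs, holds NIK at a low level (chromosome 12, 111166370 to 111267153, plus strand). It stood at 1097, 1076 and 1707 in synovial libraries, 343, 254 and 240.2 in arthritic nodes and 144, 182 and 341 in control nodes. Every synovial library exceeded every node library, and the node groups overlapped. Traf3 rose by 2.19 ± 0.31 (4.64-fold, adjusted p = 0.000178), after Tnfaip3 the second largest rise of the 10 genes. Without synovial library 3 the rise was 1.98. Arthritic and control nodes differed by 0.41 (95% interval -0.26 to 1.08, adjusted p = 0.771), an interval too wide to place a limit near 0.

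Birc2 and Birc3 encode cIAP1 and cIAP2, ubiquitin ligases that modify RIPK1 and NIK. They are neighbours on chromosome 9 on the minus strand (7818227 to 7837064 and 7848699 to 7873186), with 11634 bases between them. Birc2 stood at 4663, 6850.2 and 6669 in synovial libraries, 2180.2, 2020.5 and 1729 in arthritic nodes and 2066, 1934 and 2231 in control nodes. Birc3 stood at 6629, 6270.2 and 5802 in synovial libraries, 2175, 2294 and 1875 in arthritic nodes and 2508, 2552 and 2091 in control nodes. For both genes every synovial library lay above every node library, and the node groups overlapped. Birc2 rose by 1.60 ± 0.15 (3.07-fold, adjusted p = 7.53e-06) and Birc3 by 1.56 ± 0.12 (2.95-fold, adjusted p = 1.13e-06).

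The log2 ratio of Birc3 to Birc2 was 0.06 ± 0.39 (SD, n = 3) in synovial libraries, 0.10 ± 0.09 in arthritic nodes and 0.20 ± 0.26 in control nodes. The groups overlapped, with differences of -0.04, -0.10 and -0.14 in the tissue, disease and combined comparisons (exact permutation p = 1, 0.5 and 0.8). Synovial library 1 had the lowest Birc2 and the highest Birc3 of its group, and its ratio of 1.42 was the highest of the 9 libraries. The genes share 65 stretches of 50 bases in their annotated transcripts (1.42% of those of Birc2, 1.28% of those of Birc3), and reads from those stretches could belong to either gene.

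Cflar encodes c-FLIP, which blocks caspase-8 at death receptors (chromosome 1, 58711508 to 58758884, plus strand). It stood at 1486, 1569 and 1735 in synovial libraries, 1583, 1666 and 1240.4 in arthritic nodes and 1259.6, 1333 and 896 in control nodes. Synovial and arthritic node values overlapped, and all synovial values exceeded all control values. The tissue difference was 0.10 (95% interval -0.27 to 0.47, adjusted p = 0.683, with a value of -0.10 under quantile normalization) and the disease difference 0.37 (0.0045 to 0.74, unadjusted p = 0.0476, adjusted p = 0.547).

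Ripk1 encodes the kinase that carries ubiquitin chains at the TNF receptor and can also trigger cell death (chromosome 13, 34002363 to 34037147, plus strand). It stood at 299.7, 239.5 and 309 in synovial libraries, 296.5, 286 and 168 in arthritic nodes and 222, 250.1 and 455 in control nodes. The 3 groups overlapped, with the highest and the lowest value both in nodes. The tissue difference was 0.21 (95% interval -0.48 to 0.90, adjusted p = 0.643) and the disease difference -0.27 (-0.96 to 0.42, adjusted p = 0.865). Exons of Ripk1 overlap the pseudogene Gm17084 on the same strand (6.12% of exon bases) and Serpinb6a on the other (2.89%), and 7.87% of its 50-base stretches occur in other genes, so its reads are uncertain. Such shared stretches made up 7.56% for Birc3 and 7.36% for Cflar, 1.79% or less for Traf1, Traf2, Birc2 and Cyld, and 0 for Tnfaip3, Tnip1 and Traf3.

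**Figure D2:**
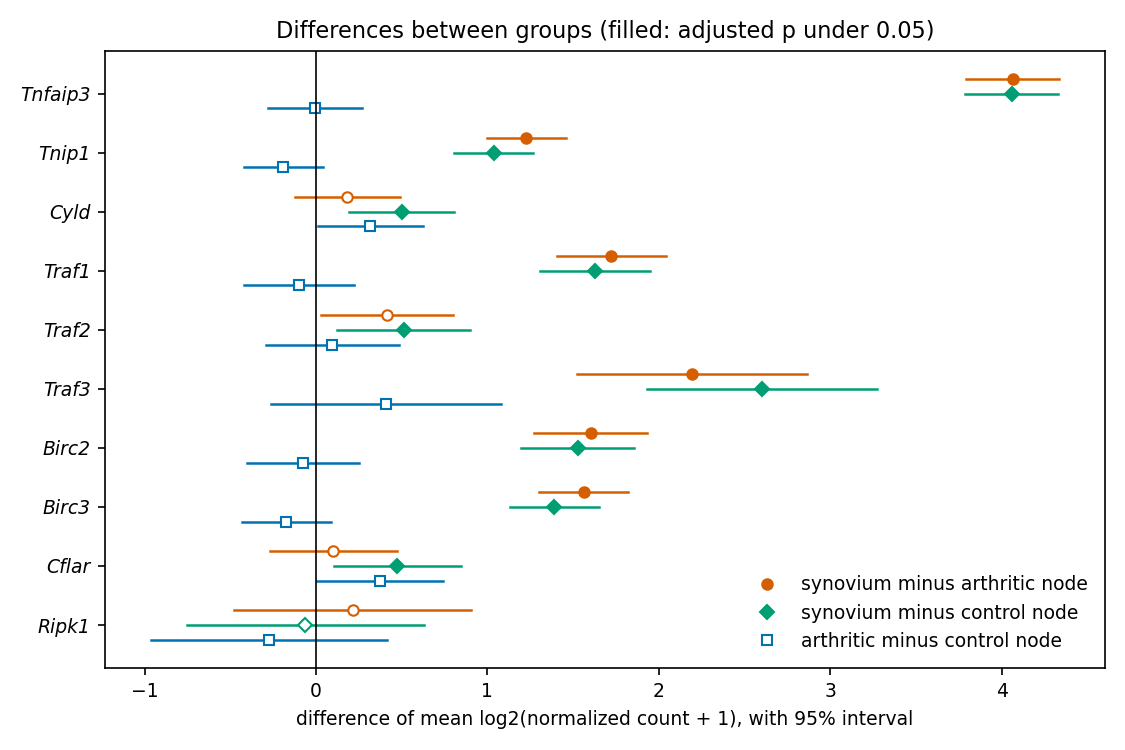
Difference of mean log2(normalized count + 1) for each gene in the 3 comparisons, with 95% intervals from limma; filled symbols passed at an adjusted p under 0.05. Filled symbols number 6 for synovium minus arthritic node, 9 for synovium minus control node and 0 for arthritic minus control node.

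The disease comparison asked whether node Tregs of arthritic mice differed from those of untreated mice in these genes. By limma 0 of the 10 genes passed, where 0.343% of all genes tested did (39 genes, with 0.335% higher and 0.00881% lower in arthritic nodes). That count over all genes was 0 to 66 when 1 library was left out (0 without arthritic node library 2, 1 without 3, 15 without synovial library 1, 23 without control library 2 and 66 without control library 3) and 181 by DESeq2. Cyld and Cflar, 2 of the 10, had an unadjusted p under 0.05, where 9.08% of all genes did. The tools edgeR and DESeq2, run with and without control library 1, called 0 of the 10 as well. The libraries did not overlap for 2 of the 10, Tnip1 (lower in arthritic nodes) and Cyld (higher), where 14.9% of all genes did not overlap. The differences ran from -0.27 for Ripk1 to 0.41 for Traf3, with a median of -0.04 against 0.01 over all genes.

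Against control nodes, synovial Tregs had higher levels of 9 of the 10 genes, all but Ripk1, where 21.6% of all genes tested rose and 18.5% fell (40.1% in all). The count was 6 of 10 under quantile normalization or with no mean-variance trend, and also without synovial library 2, and 7 to 9 of 10 without any other single library. The median of the 10 was 1.21, against 0.02 over all genes. Synovial and control node libraries did not overlap in 8 of the 10, where 50% of all genes did not overlap. Tnfaip3 rose by 4.06 ± 0.12, Traf3 by 2.60 ± 0.31, Traf1 by 1.63 ± 0.15, Birc2 by 1.53 ± 0.15, Birc3 by 1.39 ± 0.12 and Tnip1 by 1.04 ± 0.11 (largest adjusted p = 3.57e-05, for Traf3). The synovial libraries are the same as in the tissue comparison.

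The other 3 calls were smaller. Traf2 rose by 0.51 ± 0.18 (adjusted p = 0.0370), Cyld by 0.50 ± 0.14 (adjusted p = 0.0141) and Cflar by 0.48 ± 0.17 (adjusted p = 0.0413). They depend on single libraries. Leaving out synovial library 1 or 2 raised the adjusted p of Traf2 to 0.0839 or 0.110, leaving out arthritic node library 1 to 0.0513, and leaving out control library 2 or 3 to 0.125 or 0.136. For Cflar the adjusted p became 0.0613, 0.0710 or 0.116 when synovial library 1, 2 or 3 was dropped, 0.0554 with arthritic node library 1 dropped and 0.160 with control library 3 dropped. Cyld no longer passed when synovial library 2 (0.0506) or control library 1 (0.0614) was dropped. The difference for Ripk1 was -0.06 (95% interval -0.75 to 0.63, adjusted p = 0.899).

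Added up, the 10 genes took 0.430%, 0.424% and 0.509% of all normalized counts in the synovial libraries, 0.159%, 0.154% and 0.146% in arthritic nodes and 0.148%, 0.152% and 0.156% in control nodes. Tnfaip3 made up 47.2%, 43.5% and 49.2% of the counts of the 10 genes in synovium. In the node libraries its share was 9.14% to 11.9%. The 10 genes thus held a larger share of the counts in every synovial library than in any node library, and Tnfaip3 a larger share of theirs.

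Levels of different genes were compared per kb of exon, counting all exons annotated in GENCODE vM21, which lowers the value of genes with long alternative exons such as Cflar (12.669 kb) and Cyld (12.576 kb). In synovium Tnfaip3 led at 4092 ± 608 normalized counts per kb (SD, n = 3). Tnip1 (1405 ± 149), Birc2 (1323 ± 265) and Birc3 (1244 ± 82.8) came next, and each overlapped with its neighbour in the order. Traf1 (813 ± 136), Traf2 (470.5 ± 52.1), Cyld (293 ± 43.5), Traf3 (176 ± 48.8), Cflar (126 ± 9.997) and Ripk1 (33.9 ± 4.52) followed, with no overlap between neighbours.

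In arthritic nodes Tnip1 led at 598 ± 18.2 per kb, above Birc2 (432 ± 49.98), Birc3 (422 ± 43.1) and Traf2 (353 ± 40.0), neighbours that overlapped. Cyld (256 ± 2.95), Traf1 (245 ± 23.0) and Tnfaip3 (243 ± 20.4) overlapped too, above Cflar (118 ± 17.8), and Traf3 (38.0 ± 7.56) and Ripk1 (29.96 ± 8.56) overlapped at the lower end. Control nodes also had Tnip1 first (682 ± 16.2) and then a run of overlapping neighbours from Birc3 (476 ± 50.8) through Birc2 (453 ± 32.6), Traf2 (337 ± 94.99), Traf1 (263 ± 39.9) and Tnfaip3 (245 ± 23.8) to Cyld (208 ± 34.7). Cflar (91.8 ± 18.5), Ripk1 (37.0 ± 15.2) and Traf3 (30.2 ± 14.2) came last, the latter 2 overlapping. Tnfaip3 thus stood at rank 1 per kb in synovial libraries, 7 in arthritic nodes and 6 in control nodes, and Traf3 at ranks 8, 9 and 10.

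**Figure D3:**
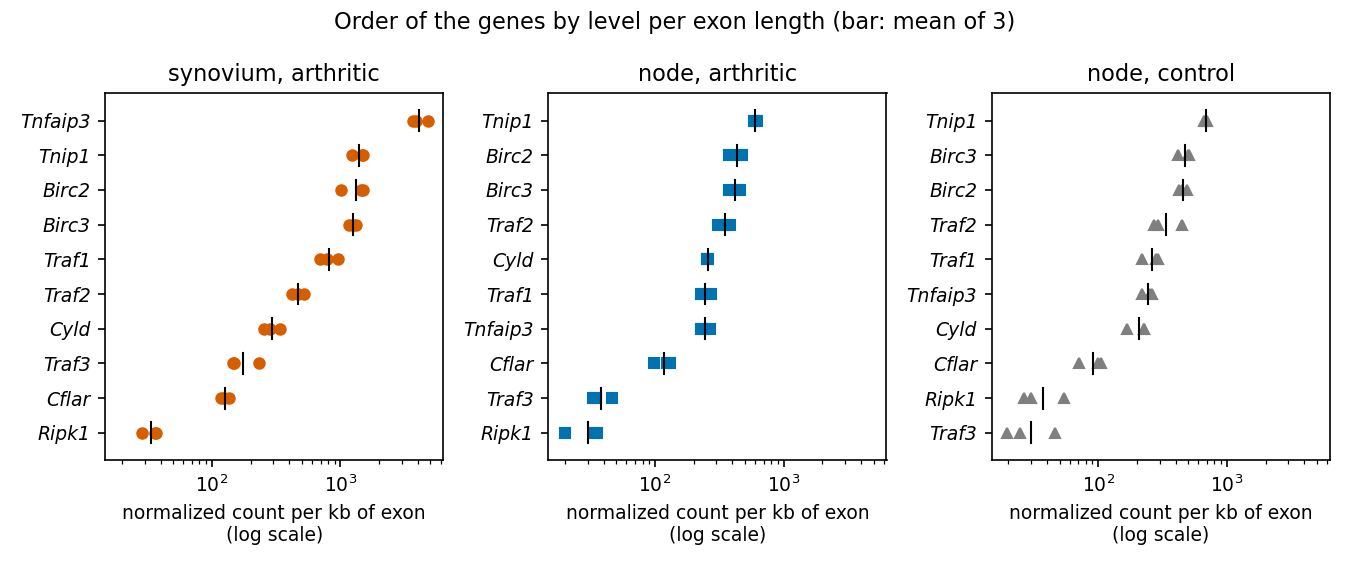
Normalized count per kb of exon (log scale) in each library, with genes sorted within each group by their mean (bar). Tnfaip3 is at the top in synovium and next to Traf1 in both node groups, where Tnip1 leads.

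Patterns differed among the 10 genes over the 9 libraries. Likeness was measured as the root mean square difference of log2 values centred per gene, over 9 libraries that share the split by tissue. The closest pairs were Tnip1 with Birc3 (0.23), Traf1 with Birc2 (0.23), Birc2 with Birc3 (0.23) and Traf1 with Birc3 (0.24), followed by Traf2 with Cflar (0.25). Tnfaip3 was nearest to Traf3 (0.88), which ranked 237 among the genes tested, and farthest from Ripk1 (1.92), at rank 4995.

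Of all genes tested, the 5 most like Tnfaip3 were Adck3 (0.14), Rel (0.26), Ccrl2 (0.30), Stx11 (0.31) and Tnfrsf9 (0.31). Adck3, a kinase-like gene of coenzyme Q synthesis, had mean counts of 6863 ± 955 (synovial), 404 ± 45.3 (arthritic node) and 400.1 ± 78.6 (control node). Rel, an NF-kB subunit, averaged 8369 ± 740, 549 ± 84.7 and 636 ± 80.8 in the same groups, and Ccrl2, a receptor-like protein that binds chemerin, 3427 ± 548, 217 ± 17.4 and 230.1 ± 46.7. Stx11, a membrane fusion protein, averaged 5172 ± 1030.0, 434 ± 64.9 and 379 ± 130, and Tnfrsf9, which encodes the TRAF-recruiting receptor 4-1BB, 56322 ± 22530, 2834 ± 323 and 2195 ± 96.4. The synovial means of these 5 genes were 11.9 to 19.9 times those in arthritic nodes and 13.2 to 25.7 times those in control nodes, and the measure selects genes with such differences.

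The rest of the pathway was described through lists of named genes, again in the tissue comparison, where 17.9% of all genes tested rose and 15.9% fell. The counts are descriptions to be read beside those shares, for lists that were also chosen with earlier results of these data known. Among 10 partners of A20 in ubiquitin editing, 3 rose, 0 fell and 7 did not pass, with a median of 0.64. Tnip2, a relative of Tnip1, rose by 1.43 ± 0.28, from 384 ± 39.7 to 1094 ± 470 (adjusted p = 0.00194). Tax1bp1, an adaptor of the A20 complex, rose by 0.81 ± 0.11, from 7606 ± 130 to 13418 ± 1946, and Spata2, which links CYLD to the linear ubiquitin ligase, by 1.26 ± 0.44 (adjusted p = 0.0426). Of 10 genes of the linear ubiquitin ligase LUBAC and of ubiquitin conjugation, 2 rose and 2 fell, close to the shares over all genes, with a median of -0.25. The conjugating enzyme genes Ube2d3 and Ube2n rose by 0.63 ± 0.11 and 0.47 ± 0.15, while Rbck1, which encodes the LUBAC subunit HOIL-1, fell by 0.53 (SE 0.15) and Ube2l3 fell by 0.39 (SE 0.12).

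Of 9 other TRAF genes and adaptors 3 rose and 3 fell. Traf4 rose from 142 ± 27.6 to 834 ± 86.7 (2.56 ± 0.28, adjusted p = 2.42e-05), Tank, which binds TRAFs, by 1.29 ± 0.13 and Traf6 by 0.48 ± 0.13. Traf5, another TRAF adaptor, was lower in synovium, at 256 ± 20.02 against 677 ± 71.1 (fell by 1.40, SE 0.17, adjusted p = 5.63e-05). Traf3ip3 fell by 1.73 (SE 0.14) and Tradd, which couples TNFR1 to RIPK1 and TRAF2, fell by 0.55 (SE 0.15).

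Of 13 genes of the IKK and TAK1 kinase modules 6 rose and 3 fell, with a median of 0.38. Map3k14, which encodes NIK, the kinase that TRAF3 and the cIAPs hold down, rose from 296 ± 34.0 to 562 ± 115 (0.91 ± 0.22, adjusted p = 0.00775). Map3k8, which encodes TPL2, rose by 1.90 ± 0.27, the TAK1 adaptor gene Tab2 by 1.06 ± 0.20 and Map3k1 by 0.84 ± 0.17. Ikbkb, the catalytic IKK subunit of the canonical pathway, fell by 0.51 (SE 0.12), the related Ikbke fell by 1.07 (SE 0.17) and Map4k3 fell by 1.72 (SE 0.44).

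Among 14 genes of death complexes and IAP antagonism 3 rose, 2 fell and 9 did not pass. The death receptor gene Fas rose by 1.45 ± 0.18, Ripk2 by 1.26 ± 0.32 and Ripk3, a kinase of necroptosis, by 0.84 ± 0.13. Casp8, the protease that c-FLIP blocks, fell by 0.87 (SE 0.10), from 4793 ± 328 in arthritic nodes to 2619 ± 47.8 in synovium (adjusted p = 5.08e-05), and Bid, a substrate of caspase-8, fell by 0.78 (SE 0.18). Cflar itself, as given above, differed by 0.10 and did not pass.

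Of 14 receptors that recruit TRAFs, 12 were tested (Ltbr and Tnfrsf11a were too low), of which 7 rose and 1 fell, with a median of 1.26. Tnfrsf8 (CD30) rose by 3.29 ± 0.65 and Tnfrsf1b (TNFR2) by 2.04 ± 0.23, from 1663 ± 229 to 6927 ± 1624, beside Tnfrsf9 and Tnfrsf4. The receptor that fell was Tnfrsf13c, the BAFF receptor of B cells, at 1.10 ± 1.91 against 35.4 ± 19.3 (adjusted p = 0.00307); it was below the level required for naming and is named because it was the sole fall. All 11 Rel and IkB genes rose, with a median of 1.92, among them Nfkbiz by 2.52 ± 0.16 and Nfkb2, the precursor of the non-canonical subunit, by 2.30 ± 0.24. TMM scaling gave the same counts for these 7 pathway lists in the tissue comparison. Quantile normalization gave 1 rise and 3 falls for LUBAC and conjugation and 5 and 3 for the kinase modules. For the other TRAF genes and adaptors it gave 2 and 3. The receptors had 7 and 2 and the Rel and IkB genes 10 and 0, with the counts of the ubiquitin-editing and death genes as before.

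**Figure D4:**
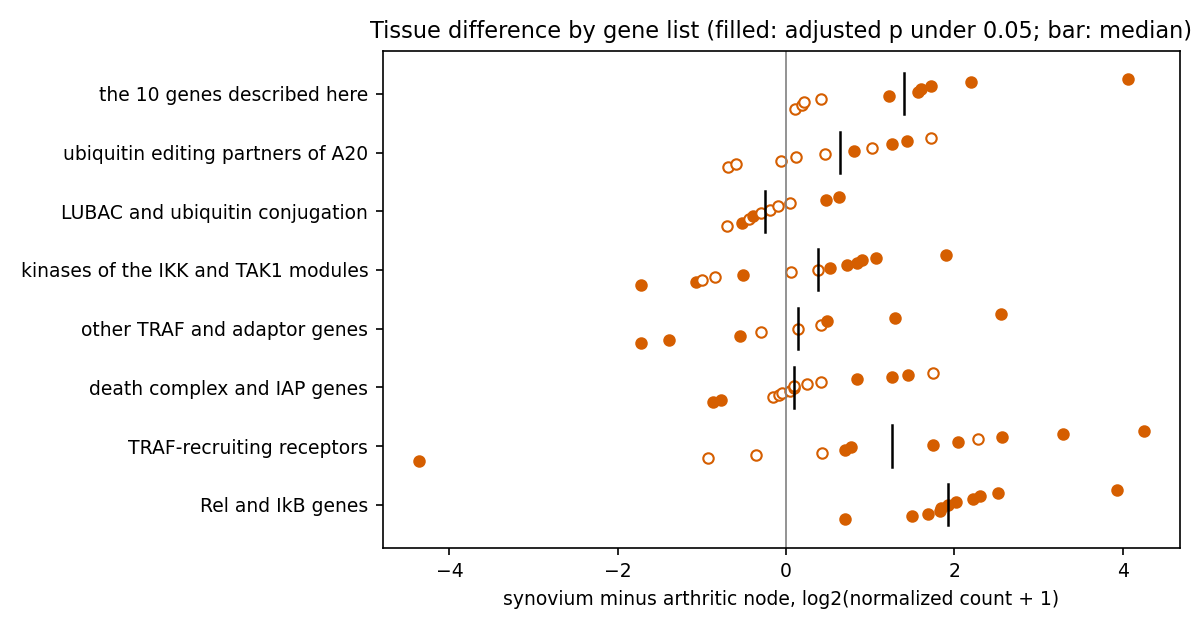
Tissue difference of each gene tested in the 8 gene lists, as synovium minus arthritic node on the log2(normalized count + 1) scale; filled symbols passed at an adjusted p under 0.05 and bars mark list medians. The Rel and IkB genes are all filled and right of 0. The 10 genes described here also lie right of 0, whereas every other list has symbols on both sides.

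In the disease comparison 0 genes of any of these pathway lists passed, where 0.343% of all genes tested did. Against control nodes, where 21.6% of all genes tested rose and 18.5% fell, 4 of the 10 ubiquitin-editing genes rose. Of 10 LUBAC and conjugation genes 2 rose and 1 fell, near those shares. Of 13 genes of the kinase modules 5 rose and 3 fell, and of 9 other TRAF genes and adaptors 3 rose and 3 fell. In the same comparison 5 death and IAP genes rose and 2 fell, 7 receptors rose and 1 fell, and 11 of 11 Rel and IkB genes rose. The digestion-related list had 17 of 18 genes higher there.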

How the data were processed

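Groups and mouse numbers came from sample titles. Per the submitters' processing notes, reads were handled with HISAT2, HTSeq and DESeq2 on mm10; the sources used here do not give versions, annotation or strand setting. The deposited table holds a normalized signal, in which each library's read counts are scaled by its own size factor: in 8 libraries 100% of values were whole reads within 0.01 after rescaling. The step of control library 1 (1.004) was too close to 1 for the automatic check of recovered reads, so edgeR 4.0.16 and DESeq2 1.42.0 first ran without it. Its values are whole reads too, and both tools were then run on all 9 libraries, an alternative chosen after seeing the data. The authors' deposited comparison table gives a mean signal, log2 fold changes and errors, a test score and p-values, per the file headers. Rerunning DESeq2 on the 6 libraries of arthritic mice gave its log2 fold changes within 2e-14.

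The main test was limma 3.58.1 (R 4.3.3; lmFit, eBayes with a trend) on log2(value + 1) for 11357 genes with a mean of 10 or more, all 9 libraries in each fit. Fold changes on this scale understate those of low genes. Ratios within a library were tested by exact permutation. The scripts were tested on simulated data. The 10 genes and all lists were chosen with earlier results of these data known. Named genes were the 10, up to 4 called per direction and list with the largest difference (where the higher group's mean reached 50), and the 5 most like Tnfaip3. Otulin and Adgre1 stood in the table as Fam105b and Emr1. Positions and exons came from GENCODE vM21, upstream sequence from RefSeq.

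Alternatives changed the pseudocount, filter, variance model, libraries in the fit, scaling, test, threshold and mouse block, and left out each library. Titles number the libraries of arthritic mice 1 to 3 in each tissue, which was read as the same animals; residuals of same-numbered libraries correlated at 0.02, 0.05 and 0.09. Control mice are other animals, so their numbers pair nothing, yet same-numbered arthritic and control node libraries correlated at 0.005, 0.067 and 0.070. Such correlations cannot decide whether libraries are paired. Intervals rest on the spread between libraries of separate mice within groups, pooled over the 3 groups and moderated by limma towards a trend across genes. The main fits held no mouse block, so the tissue intervals take no account of the pairing read from the titles.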

Additional observations from a re-analysis of the deposited data

How the results depend on the processing

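The 6 tissue calls (Tnfaip3, Tnip1, Traf1, Traf3, Birc2, Birc3) passed under every alternative run, and members called numbered 6 or 7, the seventh being Traf2 (library weights, 2 groups only, DESeq2 on 8 libraries, replicate block, without control library 1). In the disease comparison 0 members passed in each. Against control nodes 6 to 9 passed. With the replicate block, 7 members and 3776 genes passed in the tissue comparison; in the others, where numbers do not pair animals, 0 and 8 members. Over all genes, 3844 were called in the tissue comparison, 2146 of them at least 2-fold; 4551 against control nodes, 2646 at least 2-fold; and 39 in the disease comparison, against 10 with no trend, 12 by edgeR and 170 by DESeq2 without control library 1, 37 and 181 by the same tools on all 9 libraries, 0 with 2 groups only or the block and 0 to 66 without 1 library. Quantile normalization moved the median of all genes to -0.12 (tissue) and -0.13 (against control nodes), gave 1711 higher and 2344 lower calls against 2034 and 1810 (tissue) and 1999 and 2747 against 2451 and 2100, and reversed the tissue differences of Cflar (-0.10) and Cyld (-0.10), beside that median of -0.12. It ended the calls of Traf2, Cflar and Cyld against control nodes (adjusted p = 0.201, 0.185 and 0.229). So did no trend (0.1003, 0.0970, 0.0573). The Cflar and Cyld calls were lost by edgeR (0.0852, 0.103) and DESeq2 (0.0534, 0.0519) where control library 1 was also left out, which by limma alone gave 0.0490 and 0.0614. On all 9 libraries DESeq2 kept all 3 calls (at most 0.0394), and edgeR kept Cyld (0.0284) but not Traf2 (0.0728) or Cflar (0.0688). Other losses were Traf2 and Cflar with no filter (0.0521, 0.0555) or 2 groups only (0.0625, 0.0575), and Cflar with library weights (0.0655) or the block (0.0577). The cause was not tested.

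Other reversals concern differences that did not pass. Leaving out 1 library gave -0.027 to 0.19 for Cflar and -0.051 to 0.36 for Ripk1 (tissue). In the disease comparison it gave -0.087 to 0.051 for Tnfaip3, -0.15 to 0.018 for Birc2, -0.037 to 0.32 for Traf2 and -0.48 to 0.041 for Ripk1, and against control nodes -0.26 to 0.25 for Ripk1. Tnfaip3 in the disease comparison was 0.014 with library weights, 0.045 by edgeR and 0.046 by DESeq2, and Ripk1 against control nodes 0.0056 with library weights. The Birc3 to Birc2 log2 ratio ranged over -0.26 to 0.091 (tissue) and -0.24 to 0.0057 (disease). The members with the lowest counts, Ripk1 and Traf3, at means of 222 to 309 in nodes, had SDs up to 47.0% of the mean.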
